A study of Mus musculus with 18 samples.

Results

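The genes described here are the TGF-beta ligands Tgfb1, Tgfb2 and Tgfb3, their receptors Tgfbr1, Tgfbr2 and Tgfbr3, and the latent TGF-beta binding proteins Ltbp1, Ltbp2, Ltbp3 and Ltbp4. They were chosen by symbol and are 10 of the 49315 genes in the count files. RNA was sequenced from hearts dissected from wild-type C57BL/6 mouse embryos at 5 stages, named by embryonic day: E9.5 with 3 libraries, E10.5 with 4, E12.5 with 4, E14.5 with 3 and E16.5 with 4. All groups share the strain and genotype, the labels name no treatment, and per the labels each library pools male and female embryos. The labels do not give the number of embryos per library or say whether libraries come from separate litters, so the p-values measure only the spread between these libraries, which may be technical. The stages were compared to follow the level of each gene as the heart forms.

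TGF-beta ligands are secreted as latent complexes, in which the propeptide stays bound to the mature ligand and is itself linked to a latent TGF-beta binding protein that anchors the complex to fibrillin and fibronectin in the matrix. Integrins and proteases release the ligand, which binds the type II receptor TGFBR2; this receptor phosphorylates the type I receptor TGFBR1, and SMAD2 and SMAD3 then carry the signal to the nucleus with SMAD4. In the embryonic heart the pathway is known for the conversion of endocardial cells into cushion mesenchyme, the precursor of the valves, and for the formation of matrix by cells that descend from the epicardium.

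The files held 30744015 to 45646538 counts per library. The 8 cardiomyocyte markers were detected at every stage and summed to 14280 to 27368 CPM (counts per 1000000 counts of the library). A set of 5 libraries stood apart from the other 13: E9.5 replicates 2 and 3, E10.5 replicates 1 and 2, and E12.5 replicate 4. Their summed level of 8 transcripts of activated myeloid cells was 0.582 to 2.75 CPM, against 341 to 689 CPM in the other 13. The 5 libraries were assigned to the set by this summed level, so their low level follows from the choice. Within E9.5, E10.5 and E12.5 both the first and the second principal component, with 68.0% and 11.6% of the variance, separated them from the other libraries of their stage. On the first, they lay farther from E14.5 and E16.5 than those other libraries did. E9.5 replicates 2 and 3 lay at -94.6 and -102, against -40.0 for replicate 1. E10.5 replicates 1 and 2 lay at -73.2 and -74.3, against -32.1 and -30.9 for replicates 3 and 4. E12.5 replicate 4 lay at -18.7, against 12.6 to 19.4 for the others of E12.5. With stage in the model, 2 of the 10 genes differed between the 5 libraries and the rest by edgeR, where 21.8% of all genes tested did. Tgfbr1 was higher in the 5 libraries by 0.20 ± 0.0679 (log2, SE; adjusted p = 0.0367) and Tgfbr2 by 0.22 ± 0.0544 (adjusted p = 0.00617). Results without the 5 libraries are given for the tests between neighbouring stages and of E16.5 against E9.5. They are also given for the ratios, the correlations and the counts of pathway genes, though not for every value. Family shares without the 5 are given for some genes at E9.5, and family sums only with all libraries. The other values use all libraries. No library comes from the 5 at E14.5 or E16.5. Without the 5, only 1 library is left at E9.5, which is then assumed to vary like the other stages.

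Promoter windows of 300 bases, from 250 bases before to 50 after an annotated start site, were available from RefSeq (GRCm38.p6) for 8 of the 10 genes. The windows below are shown because their genes carry the main patterns: Tgfb2 and Tgfbr1 fell, Tgfbr2 and Ltbp3 rose, and Ltbp1 rose and then fell. Ltbp1 and Tgfbr1 have a second, downstream start site, and the window of the upstream site is printed. Capitals mark every match, on either strand, to 1 of 8 motifs: the TATA box (TATAAA), the motif of NF-Y (CCAAT), that of Sp1 (GGGCGG), the cyclic AMP response element (TGACGTCA), the E-box (CACGTG), the motif of AP-1 (TGANTCA), that of TEAD factors (CATTCC) and that of Runx factors (AACCAC).
Tgfb2 promoter, GRCm38.p6 chr1:186705940-186706239, minus strand: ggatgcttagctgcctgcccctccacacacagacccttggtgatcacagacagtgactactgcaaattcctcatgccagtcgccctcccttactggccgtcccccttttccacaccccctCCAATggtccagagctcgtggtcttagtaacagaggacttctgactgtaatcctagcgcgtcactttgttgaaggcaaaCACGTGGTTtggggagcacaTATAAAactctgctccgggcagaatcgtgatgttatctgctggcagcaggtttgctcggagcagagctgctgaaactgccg
Tgfbr1 promoter, GRCm38.p6 chr4:47352972-47353271, plus strand: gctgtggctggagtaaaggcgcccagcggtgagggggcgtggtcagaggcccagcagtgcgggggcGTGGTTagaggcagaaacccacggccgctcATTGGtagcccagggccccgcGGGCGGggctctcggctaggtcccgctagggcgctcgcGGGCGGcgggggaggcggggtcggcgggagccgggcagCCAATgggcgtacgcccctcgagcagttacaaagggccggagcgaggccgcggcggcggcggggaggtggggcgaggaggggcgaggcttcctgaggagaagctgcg
Tgfbr2 promoter, GRCm38.p6 chr9:116175314-116175613, minus strand: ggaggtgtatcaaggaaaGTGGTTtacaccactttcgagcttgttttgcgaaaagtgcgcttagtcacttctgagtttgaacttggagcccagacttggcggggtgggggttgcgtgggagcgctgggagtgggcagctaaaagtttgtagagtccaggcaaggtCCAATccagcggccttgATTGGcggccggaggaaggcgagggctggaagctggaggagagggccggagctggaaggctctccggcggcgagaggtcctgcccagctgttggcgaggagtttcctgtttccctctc
Ltbp1 promoter, GRCm38.p6 chr17:75005279-75005578, plus strand: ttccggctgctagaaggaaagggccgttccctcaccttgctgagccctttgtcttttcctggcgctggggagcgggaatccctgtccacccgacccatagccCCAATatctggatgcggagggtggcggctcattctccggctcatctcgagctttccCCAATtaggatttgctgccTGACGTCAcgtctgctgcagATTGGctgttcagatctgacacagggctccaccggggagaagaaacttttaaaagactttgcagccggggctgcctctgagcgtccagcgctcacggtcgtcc
Ltbp3 promoter, GRCm38.p6 chr19:5740650-5740949, plus strand: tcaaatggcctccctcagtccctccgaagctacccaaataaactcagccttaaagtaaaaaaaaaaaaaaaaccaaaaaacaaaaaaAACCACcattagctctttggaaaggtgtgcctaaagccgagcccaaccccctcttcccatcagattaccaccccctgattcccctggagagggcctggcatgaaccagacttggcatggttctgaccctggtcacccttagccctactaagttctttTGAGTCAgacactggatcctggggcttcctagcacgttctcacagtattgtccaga
Positions are counted from the start site, with -1 the base before it, and give the first base of a match. Tgfb2 alone among the printed windows held TATAAA, at -31, and 13.6% of all 32851 RefSeq windows hold it. Its window also held CACGTG at -51, which 7.15% of windows hold, overlapped by a match to AACCAC at -48, and CCAAT at -130. The Ltbp1 window held TGACGTCA at -73, which 1.79% of windows hold, and CCAAT at 3 positions, against 37.4% of windows with at least 1 match. The Tgfbr2 window held CCAAT at -85 and -68 and AACCAC at -232. The Ltbp3 window held TGANTCA at -6, which 7.81% of windows hold, and AACCAC at -163, which 13.0% hold. The Tgfbr1 window held GGGCGG at -133 and -95, a motif of 35.7% of windows, with CCAAT at -154 and -57 and AACCAC at -184. At the second start site of Ltbp1, the motif of NF-Y and the cyclic AMP response element were absent and that of Runx factors was found at -70 and -32, while the second site of Tgfbr1 had only a match to the NF-Y motif among the 8. CATTCC, found in 14.7% of all windows, was in none of these 5. A match describes the letters in the window and is not a measured binding site.

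Between E9.5 and E16.5 the set split into genes that rose and genes that fell. Tgfb3, Tgfbr2, Ltbp2, Ltbp3 and Ltbp4 rose, Ltbp3 by 21.7-fold and the other 4 by 3.95-fold to 8.45-fold. Tgfb2, Tgfbr1, Tgfbr3 and Ltbp1 fell, by 1.54-fold to 1.90-fold. Tgfb1 did not pass the test. In edgeR's quasi-likelihood test with Benjamini-Hochberg adjustment, which was fitted to all 18 libraries, 9 of the 10 genes passed an adjusted p under 0.05, where 64.9% of all 18885 genes tested did. Of these, 5 were higher (32.1% of all genes were) and 4 were lower (32.8%). All 9 kept direction and call without the 5 libraries, where 51.1% of genes passed. The median log2 fold change was 1.0 over the 10 genes and -0.0052 over all genes tested. As the set is split, the median of the 10 lies between Tgfb1 (0.015) and Tgfbr2 (1.98) and is near the value of no gene. In RNA from whole hearts, fewer cells of a type and less RNA per cell cannot be told apart.

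**Figure D1:**
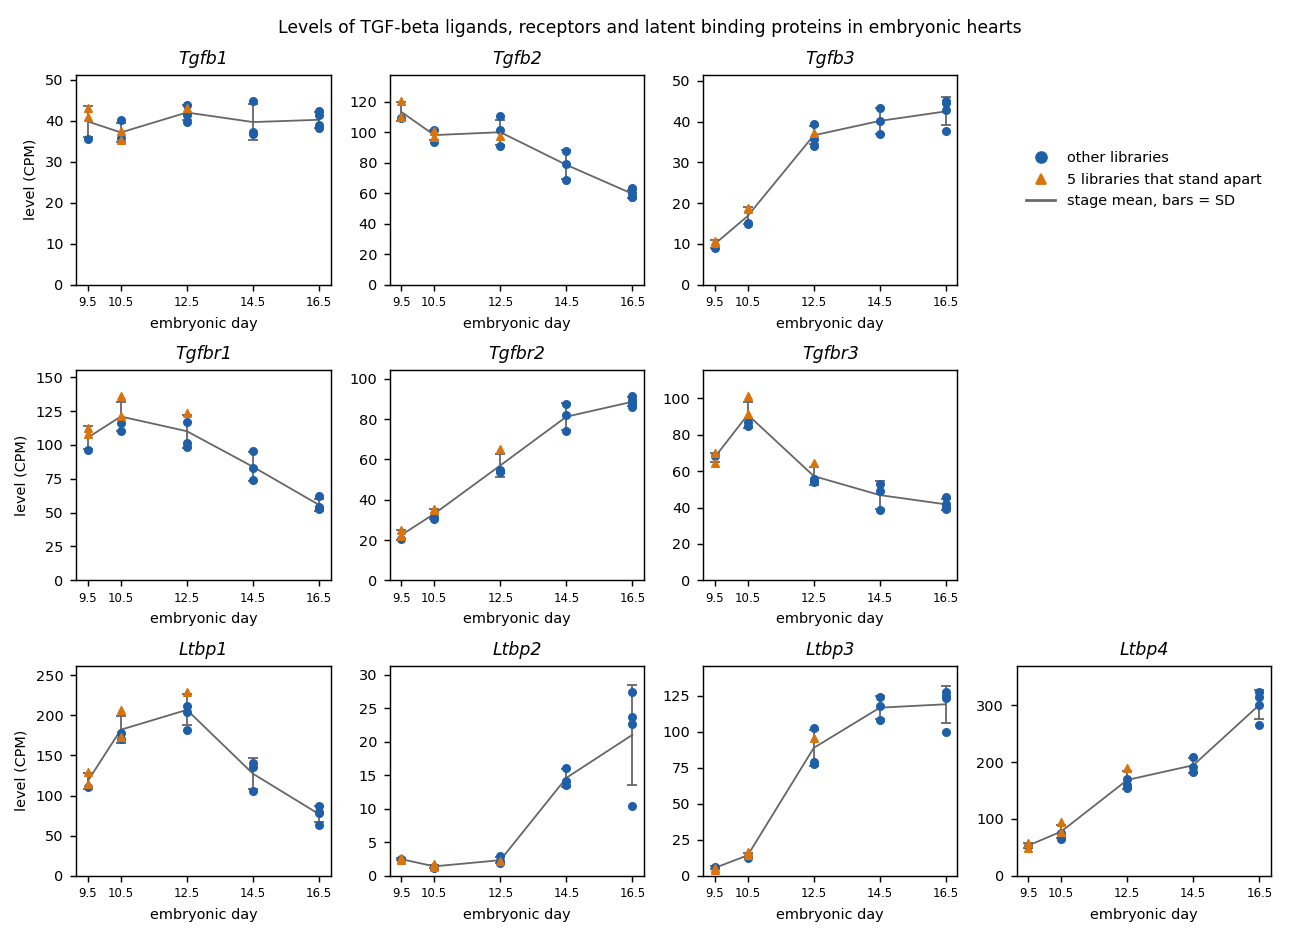
Level in CPM (vertical axes, linear, from 0) of each gene against embryonic day in the 18 libraries, with ligands, receptors and binding proteins in rows. Points are libraries, with triangles for the 5 that stand apart, and the line and bars give the stage mean and SD; Tgfb3, Tgfbr2, Ltbp3 and Ltbp4 climb, Tgfb2 and Tgfbr1 decline, and Tgfb1 stays between 35.3 and 44.9 CPM.

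Of the ligands, Tgfb1 (ENSMUSG00000002603, chromosome 7, 25687002 to 25705077, plus strand), the founding member of the family, was at a similar level in every stage. Tgfb1 stood at 35.5, 40.8 and 43.1 CPM at E9.5, 35.3, 37.4, 40.2 and 35.7 at E10.5 and 39.8, 41.4, 43.9 and 43.1 at E12.5. It stood at 36.8, 37.4 and 44.9 CPM at E14.5 and 42.4, 38.3, 38.9 and 41.5 at E16.5. The libraries of all stages overlapped, and no neighbours in the order of stage means differed beyond their spread. The test over the 5 stages gave an adjusted p of 0.313 (edgeR), which made Tgfb1 the only 1 of the 10 that did not pass it, where 71.7% of all genes passed, and E16.5 against E9.5 gave a log2 fold change of 0.015 ± 0.0829 (SE).

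Tgfb2 (ENSMUSG00000039239, chromosome 1, 186622792 to 186705989, minus strand), the ligand with the known part in cushion and outflow tract formation, declined in later stages. Tgfb2 stood at 109, 109.8 and 120.5 CPM at E9.5, 96.6, 100.5, 93.7 and 101 at E10.5 and 110.5, 101, 90.6 and 97.4 at E12.5. It stood at 87.8, 78.9 and 68.8 CPM at E14.5 and 57.4, 60.3, 63.2 and 57.4 at E16.5. The 4 libraries of E16.5 lay below every earlier library, and those of E14.5 lay below those of the earlier stages. E16.5 against E9.5 gave a log2 fold change of -0.93 ± 0.0808 (SE; adjusted p = 5.16e-09), and -0.87 without the 5 libraries. E10.5 and E12.5, and E12.5 and E9.5, did not differ beyond their spread (adjusted p = 0.804 and 0.0715). An antisense gene, Gm29491, overlaps 2.14% of its exon bases, and the strand setting of the counting is not given.

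Tgfb3 (ENSMUSG00000021253, chromosome 12, 86056745 to 86079041, minus strand), the ligand known for its part in palate fusion and for expression in mesenchyme, rose early and then levelled off. Tgfb3 stood at 8.94, 10.8 and 10.2 CPM at E9.5, 18.5, 18.9, 14.9 and 15.2 at E10.5 and 39.3, 35.8, 34.1 and 37.3 at E12.5. It stood at 40.0, 43.4 and 37.0 CPM at E14.5 and 42.8, 44.5, 45.1 and 37.6 at E16.5. The libraries of E9.5, E10.5 and E12.5 did not overlap with each other, whereas those of E12.5, E14.5 and E16.5 did. The log2 fold change of E16.5 against E9.5 was 2.09 ± 0.106 (adjusted p = 2.07e-12), and 2.25 without the 5 libraries. Genes on the opposite strand overlap 4.82% (Gm37804) and 7.60% (Gm48008) of its exon bases.

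Of the receptors, Tgfbr1 (ENSMUSG00000007613, chromosome 4, 47353222 to 47414931, plus strand), the type I receptor kinase, was steady up to E12.5 and then fell. Tgfbr1 stood at 95.9, 108 and 112 CPM at E9.5, 136, 122, 111 and 116 at E10.5 and 101, 117, 98.5 and 124 at E12.5. It stood at 95.2, 82.7 and 73.7 CPM at E14.5 and 52.9, 54.4, 62.2 and 53.2 at E16.5. All 4 libraries of E16.5 lay below the 3 of E14.5, and these below every earlier library. E9.5, E12.5 and E10.5, in that order of means, did not differ between neighbours (adjusted p = 0.635 and 0.27). E16.5 against E9.5 gave a log2 fold change of -0.92 ± 0.101 (adjusted p = 1.42e-07), and -0.78 without the 5 libraries.

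Tgfbr2 (ENSMUSG00000032440, chromosome 9, 116084293 to 116175360, minus strand), the type II receptor that binds the ligand, rose at each step up to E14.5. Tgfbr2 stood at 20.3, 25.2 and 21.9 CPM at E9.5, 35.3, 35.0, 30.2 and 31.5 at E10.5 and 54.2, 54.7, 53.9 and 65.4 at E12.5. It stood at 87.3, 74.2 and 82.1 CPM at E14.5 and 87.9, 86.0, 89.3 and 91.3 at E16.5. No library of an earlier stage reached the next stage until E14.5 and E16.5, which overlapped. The log2 fold change of E16.5 against E9.5 was 1.98 ± 0.0936 (adjusted p = 7.81e-13), and 2.13 without the 5 libraries. At E12.5 the highest library, replicate 4, is 1 of the 5.

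Tgfbr3 (ENSMUSG00000029287, chromosome 5, 107106570 to 107289629, minus strand), betaglycan, a co-receptor that presents ligand and above all TGF-beta 2 to the type II receptor, peaked at E10.5. Tgfbr3 stood at 68.4, 69.7 and 64.7 CPM at E9.5, 91.1, 101, 87.0 and 84.7 at E10.5 and 54.2, 54.6, 55.6 and 64.7 at E12.5. It stood at 53.1, 48.8 and 38.5 CPM at E14.5 and 40.4, 45.6, 39.0 and 41.9 at E16.5. The 4 libraries of E10.5 lay above all others. E12.5 was lower than E9.5 (adjusted p = 0.046), although its highest library, which is 1 of the 5, came up to the lowest of E9.5, and E14.5 and E16.5 overlapped. The log2 fold change of E16.5 against E9.5 was -0.70 ± 0.0965 (adjusted p = 3.13e-06), and -0.71 without the 5 libraries. Gm43422, on the same strand, overlaps 4.54% of its exon bases, so some of its reads may be shared.

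Of the binding proteins, Ltbp1 (ENSMUSG00000001870, chromosome 17, 75005568 to 75392512, plus strand), which tethers latent complexes of each ligand, rose to a plateau at E10.5 and E12.5 and then fell. Ltbp1 stood at 111, 129.6 and 114 CPM at E9.5, 173, 206, 179 and 171 at E10.5 and 205, 211, 182 and 229 at E12.5. It stood at 136, 141 and 105 CPM at E14.5 and 78.7, 86.4, 79.3 and 63.2 at E16.5. The libraries of E10.5 and E12.5 overlapped and lay above all others, and those of E16.5 lay below all others. E9.5 and E14.5 overlapped (adjusted p = 0.475). From E9.5 to E16.5 the log2 fold change was -0.62 ± 0.113 (adjusted p = 8.08e-05), and -0.52 without the 5 libraries.

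Ltbp2 (ENSMUSG00000002020, chromosome 12, 84783212 to 84876532, minus strand), a microfibril protein that does not bind latent TGF-beta, was low until E12.5. Ltbp2 stood at 2.45, 2.37 and 2.66 CPM at E9.5, 1.75, 1.35, 1.35 and 1.23 at E10.5 and 3.02, 2.16, 1.97 and 2.19 at E12.5. It stood at 13.6, 16.2 and 14.1 CPM at E14.5 and 27.5, 23.8, 22.6 and 10.4 at E16.5. The libraries of E14.5 and E16.5 lay far above the earlier stages and overlapped with each other, since E16.5 replicate 4 was below the 3 libraries of E14.5. Behind these levels lie 47 to 110 counts per library up to E12.5 and 318 to 858 counts at E14.5 and E16.5, the fewest of the 10 genes. The log2 fold change of E16.5 against E9.5 was 3.08 ± 0.260 (adjusted p = 6.27e-09), and 3.11 without the 5 libraries. An antisense gene, D030025P21Rik, overlaps 9.34% of its exon bases.

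Ltbp3 (ENSMUSG00000024940, chromosome 19, 5740904 to 5758532, plus strand), which like Ltbp1 tethers latent complexes of each ligand, had the largest fold change of the 10. Ltbp3 stood at 6.37, 5.78 and 4.32 CPM at E9.5, 14.6, 16.2, 13.6 and 12.7 at E10.5 and 103, 77.9, 78.9 and 95.8 at E12.5. It stood at 108, 118 and 124 CPM at E14.5 and 128, 125, 124 and 100.2 at E16.5. The stages up to E14.5 did not overlap with each other, and the step from E10.5 to E12.5 was the largest. From E9.5 to E16.5 the log2 fold change was 4.44 ± 0.151 (adjusted p = 1.13e-14), and 4.23 without the 5 libraries.

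Ltbp4 (ENSMUSG00000040488, chromosome 7, 27305136 to 27337692, minus strand), a binding protein with a known role in elastic fibre assembly, rose in every interval but E12.5 to E14.5. Ltbp4 stood at 52.1, 58.5 and 49.0 CPM at E9.5, 76.9, 94.1, 74.8 and 65.3 at E10.5 and 171, 155, 159 and 189 at E12.5. It stood at 182, 192 and 209 CPM at E14.5 and 314, 323, 299 and 265 at E16.5. The libraries of E12.5 and E14.5 overlapped, and all other neighbouring stages were separate. The log2 fold change of E16.5 against E9.5 was 2.5 ± 0.117 (adjusted p = 6.54e-13), and 2.53 without the 5 libraries.

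The changes fell into intervals. Between E9.5 and E10.5, Tgfb3, Tgfbr2, Tgfbr3, Ltbp1, Ltbp3 and Ltbp4 rose and Ltbp2 fell. These are 7 of the 10 genes, where 18.2% of all genes tested passed (10.6% higher and 7.62% lower). Ltbp3 had the largest log2 fold change, 1.38 ± 0.139 (SE; adjusted p = 1.55e-06). Those of Tgfb3, Ltbp1, Tgfbr2, Ltbp4 and Tgfbr3 were 0.76 ± 0.103, 0.62 ± 0.115, 0.56 ± 0.0901, 0.55 ± 0.109 and 0.43 ± 0.0971. Tgfb1 (-0.10 ± 0.0826), Tgfb2 (-0.21 ± 0.0807) and Tgfbr1 (0.20 ± 0.102) did not pass. Without the 5 libraries 4 of the 10 passed, where 6.10% of genes did, 80.7% of them higher, against 58.2% with all libraries. The calls lost were Tgfbr3 (0.33, adjusted p = 0.184), Ltbp4 (0.43, adjusted p = 0.0629) and Ltbp2 (-0.91, adjusted p = 0.406). Among the 5 libraries alone, in a fit chosen after the data were seen, 6460 of 18524 genes passed, more than with all libraries. In that fit Tgfb2 (-0.20, adjusted p = 0.0186) and Tgfbr1 (0.25, adjusted p = 0.00706) passed as well. The Ltbp2 call (-0.81 ± 0.258, adjusted p = 0.0367) was also lost without any 1 of E9.5 replicates 1, 2 and 3 (adjusted p = 0.086, 0.0727 and 0.124) or E10.5 replicates 2, 3 and 4 (0.0861, 0.0729 and 0.0846). Without E9.5 replicate 3, 2260 genes passed in place of 3446.

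Between E10.5 and E12.5 the rises of Tgfb3, Tgfbr2, Ltbp3 and Ltbp4 went on, Ltbp2 rose to a level that did not pass a test against E9.5 (adjusted p = 0.784), and Tgfbr3 fell. These are 6 of the 10 genes, 5 higher and 1 lower, where 38.0% of all genes passed (20.0% higher and 18.1% lower). Ltbp3 rose 6.22-fold (2.64 ± 0.120 on the log2 scale, adjusted p = 9.73e-12). Tgfb3, Ltbp4, Tgfbr2 and Tgfbr3 had log2 fold changes of 1.12 ± 0.0913, 1.12 ± 0.0998, 0.79 ± 0.0813 and -0.67 ± 0.0894, and those 5 calls, Ltbp3 included, held both without the 5 libraries, where 28.0% of genes passed, and within them, where 5880 of 18524 genes passed. E12.5 has only 1 library among the 5, which is assumed to vary like those of the other stages. The Ltbp2 call (0.71 ± 0.238, adjusted p = 0.025) was lost in both (adjusted p = 0.17 and 0.194). It was also lost without E10.5 replicate 2, 3 or 4 (adjusted p = 0.0618, 0.0553 and 0.0658) or E12.5 replicate 1 (0.0903), and in limma-voom (0.24). Tgfb1 (0.18 ± 0.0763, adjusted p = 0.0732) did not pass, but did without E10.5 replicate 3 (adjusted p = 0.045), without E14.5 replicate 3 (0.0465) and within the 5 libraries (0.25, adjusted p = 0.0333). It also passed with a filter of 10 CPM in 3 libraries (adjusted p = 0.0224) and in a fit to the libraries of E10.5 and E12.5 only (0.029). Tgfb2 (0.027 ± 0.0749), Tgfbr1 (-0.14 ± 0.0936) and Ltbp1 (0.18 ± 0.105) did not pass.

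Between E12.5 and E14.5, Ltbp2, Tgfbr2 and Ltbp3 rose, and Ltbp1, Tgfbr1 and Tgfb2 fell. These are 6 of the 10 genes, where 14.8% of all genes passed (6.29% higher and 8.56% lower). Ltbp2 rose 6.27-fold (2.65 ± 0.237 on the log2 scale, adjusted p = 8.35e-07). Ltbp1, Tgfbr2, Ltbp3, Tgfbr1 and Tgfb2 had log2 fold changes of -0.70 ± 0.115, 0.51 ± 0.0861, 0.39 ± 0.119, -0.39 ± 0.102 and -0.35 ± 0.0815. E14.5 replicate 3 decided several of these: without it 3 of the 10 genes passed, 1771 genes passed in place of 2803, and Tgfb2 (adjusted p = 0.055), Tgfbr1 (0.091) and Ltbp3 (0.13) did not. Tgfbr1 was also lost without E14.5 replicate 2 (adjusted p = 0.0518), and Ltbp3 without E14.5 replicate 2 or E12.5 replicate 2 or 3 (0.0933, 0.0923 and 0.0852). Tgfbr3 (-0.29 ± 0.0973, adjusted p = 0.0517) passed without E14.5 replicate 1 (adjusted p = 0.0179), E9.5 replicate 1 (0.0487) or E10.5 replicate 2 (0.0481), and in DESeq2 (0.034) and limma-voom (0.0434). Ltbp4 (0.21 ± 0.106, adjusted p = 0.221) passed without the 5 libraries (0.27, adjusted p = 0.0425), where 15.2% of genes did. The 6 calls made with all libraries held in that fit. Scaling by library totals only, 62.5% of the genes that passed were higher, against 42.3% with TMM scaling. Tgfb1 (-0.084 ± 0.0825) and Tgfb3 (0.13 ± 0.0962) did not pass.

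Between E14.5 and E16.5, Ltbp4 rose and Ltbp1, Tgfbr1 and Tgfb2 fell further. These are 4 of the 10 genes, where 18.9% of all genes passed (10.1% higher and 8.74% lower). Their log2 fold changes were 0.63 ± 0.108 for Ltbp4, -0.73 ± 0.113 for Ltbp1, -0.59 ± 0.101 for Tgfbr1 and -0.40 ± 0.0810 for Tgfb2. The same 4 passed without the 5 libraries, where 22.7% of genes did. Ltbp2 (0.52 ± 0.225, adjusted p = 0.115) did not pass, but did without E16.5 replicate 4, its lowest library of that stage (0.75, adjusted p = 0.00188). Tgfbr3 (-0.17 ± 0.0971, adjusted p = 0.253) passed without E14.5 replicate 3 (-0.29, adjusted p = 0.0317). Without E14.5 replicate 1 or 2, 2058 and 2225 genes passed in place of 3562. Scaling by library totals only moved the median of all genes from -0.024 to -0.15 and the share of higher genes among those that passed from 53.6% to 24.4%, and the 4 calls held while Tgfbr3 passed too (-0.29, adjusted p = 0.0366). Tgfb1 (0.021 ± 0.0826), Tgfb3 (0.081 ± 0.0965), Tgfbr2 (0.13 ± 0.0866) and Ltbp3 (0.029 ± 0.120) did not pass and turned negative under that scaling.

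**Figure D2:**
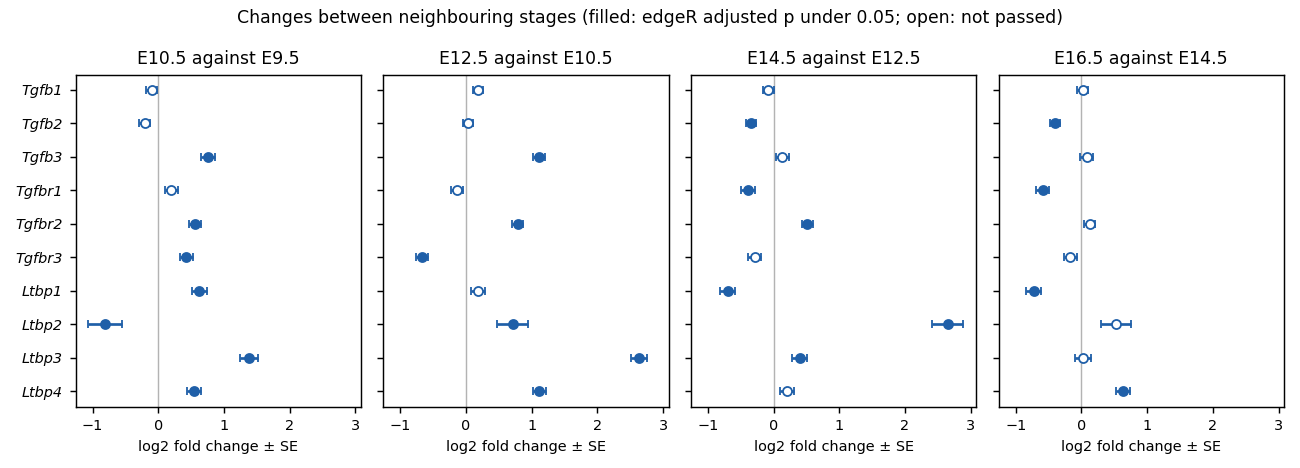
Log2 fold change (horizontal axes) of each gene between neighbouring stages, as points with bars of 1 SE, filled where the edgeR adjusted p was under 0.05. Ltbp3 at E12.5 and Ltbp2 at E14.5 stand farthest to the right, at 2.64 and 2.65.

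Per exon length, the make-up of each family changed with stage. The levels in this paragraph are RPKM, that is, CPM per 1000 bases of exon. They can be compared between genes only as far as the merged length of all annotated exons stands for the transcripts expressed. Of the summed ligand RPKM, Tgfb2 held 64.4% ± 1.71 (SD, n = 3) at E9.5 and 33.4% ± 0.950 (n = 4) at E16.5. Tgfb3 went from 9.69% ± 0.727 to 40.7% ± 1.88 over the same stages, and Tgfb1 from 26.0% ± 1.14 to 25.9% ± 1.99. The summed ligand level was 30.4 ± 1.89 RPKM at E9.5 and 30.8 ± 1.14 RPKM at E16.5, so the sums of these end stages differed by less than their spread. It was not constant between them: the sum was 29.3 ± 0.744 RPKM at E10.5, 36.4 ± 1.70 RPKM at E12.5 and 33.3 ± 1.38 RPKM at E14.5. Of the receptors, Tgfbr1 went from 55.2% ± 2.35 to 33.1% ± 2.01, Tgfbr2 from 9.37% ± 0.674 to 42.1% ± 1.26 and Tgfbr3 from 35.4% ± 2.30 to 24.8% ± 1.80. Tgfbr2 was thus the lowest of the 3 at E9.5 and the highest at E16.5. The summed receptor level was 29.2 ± 1.40 RPKM at E9.5, 36.5 ± 2.60 RPKM at E10.5 and 25.7 ± 0.568 RPKM at E16.5. The summed level of the binding proteins went from 20.2 ± 1.66 to 69.4 ± 7.01 RPKM. Ltbp1 held 54.7% ± 1.31 of it at E9.5 and 10.3% ± 0.407 at E16.5, Ltbp4 40.7% ± 0.846 and 67.1% ± 1.49, Ltbp3 3.0% ± 0.569 and 18.9% ± 0.472, and Ltbp2 1.52% ± 0.197 and 3.63% ± 1.05. In E9.5 replicate 1, the library of that stage outside the 5, Tgfb2 held 66.1%, Tgfbr1 53.2%, Tgfbr2 8.99%, Ltbp1 53.4%, Ltbp3 3.62% and Ltbp4 41.5% of their families.

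**Figure D3:**
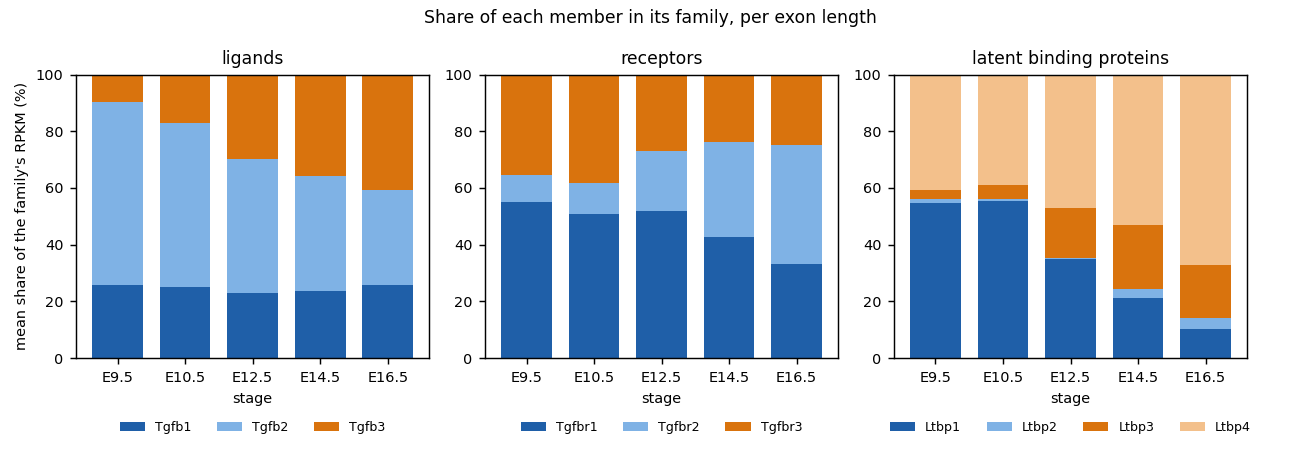
Mean share (vertical axes, %) of each gene in the summed RPKM of its family at each stage, as stacked bars for ligands, receptors and latent binding proteins. Tgfb3, Tgfbr2, Ltbp3 and Ltbp4 are wider at E16.5 than at E9.5, with Ltbp3 widest at E14.5 (22.7%), while Tgfb2, Tgfbr1 and Ltbp1 are narrower.

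Ratios within a family, in which the scaling of a library cancels, were tested between E10.5 and E16.5, with 4 libraries each. All 9 ratios computed differed (exact two-sided permutation test, p = 0.0286 for each, the smallest that 4 against 4 allows, and 0.0286 after adjustment over the 9), and in each the libraries of the stages were fully separate. The ratios share genes with each other and use the same levels as the tests of single genes, so they are not separate observations. How often ratios of other genes differ between these stages was not computed. Tgfb2 was 3.41 times Tgfb3 at E10.5 and 0.820 times at E16.5, a log2 change of -2.06. Tgfbr1 was 4.59 times Tgfbr2 at E10.5 and 0.786 times at E16.5 (-2.55), and Tgfbr3 was 3.45 and 0.588 times Tgfbr2 (-2.55). The largest change was that of Ltbp1 against Ltbp3, from 10.8 to 0.546 times (-4.31). Ltbp1 against Ltbp4 went from 1.42 to 0.154 times (-3.21), Ltbp3 against Ltbp4 from 0.131 to 0.282 times (1.10) and Ltbp2 against Ltbp4 from 0.0145 to 0.0522 times (1.84). Tgfb1 went from 0.435 to 0.776 times Tgfb2 (0.84) and from 1.48 to 0.637 times Tgfb3 (-1.22). Without E10.5 replicates 1 and 2, which are 2 of the 5 libraries, the 9 changes kept their signs, with -2.20 for Tgfb2 against Tgfb3 and -4.37 for Ltbp1 against Ltbp3.

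The genes whose level over the 18 libraries was most like that of each of the 10 were ranked by Pearson's r of log2 CPM among 11259 protein-coding genes with a mean of at least 5 CPM. The libraries share their stages, so r reflects the course over stages, and it is given as a description. Tgfb3 was closest to Antxr1 (r = 0.997), F13a1 and Adamts2, and Ltbp3 to Lox (0.994), which encodes a cross-linking enzyme of collagen and elastin, Rapgef3 and Itgb5. Tgfbr2 was closest to Megf6 (0.993), Lmntd1 and Zbtb4, and Ltbp4 to Cavin1 (0.990), which encodes a coat protein of caveolae, Nrap and Gsn. Ltbp2 was closest to Ushbp1 (0.981), Coro6 and Sdsl. Among the genes that declined, Tgfb2 was closest to G6pdx (0.977), Zfp711 and Oprl1, Tgfbr1 to Zdhhc15 (0.985), Unc5c and Zfp354c, and Tgfbr3 to Lbr (0.970), Dsc2 and Prkaa1. Ltbp1 was closest to Tcaf1 (0.964), Olfml2b and Epha1. Tgfb1, with little change to follow, reached 0.893 with Tlnrd1, then Pigt and Rnaseh2c. Within the set, r was 0.990 for Tgfb3 with Ltbp3, 0.974 for Tgfbr2 with Ltbp4 and 0.911 for Tgfb2 with Tgfbr1. Over the 13 libraries outside the 5 these were 0.992, 0.961 and 0.946, and the genes named above had an r of 0.788 to 0.996.

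Other genes of the pathway, in 6 lists chosen with earlier results of these data known, were counted in the comparison of E16.5 with E9.5. Among integrins, proteases and other factors that release ligand from latent complexes, 10 of the 16 tested rose, 2 fell and 4 did not pass, with a median log2 fold change of 0.91, against -0.0052 over all genes tested, of which 32.1% rose and 32.8% fell. Itgb5, an integrin chain that pairs with alpha v, went from 53.3 ± 1.42 to 195 ± 13.9 CPM (1.87 ± 0.0675), and the protease gene Htra1 from 3.94 ± 0.441 to 50.4 ± 6.28 CPM (3.68 ± 0.140). Itgb3 (-1.87 ± 0.189) and Itgav (-0.52 ± 0.107) fell, and Itgb8, whose product activates latent TGF-beta with alpha v, was at 12.4 ± 1.54 to 10.6 ± 1.92 CPM and did not pass (adjusted p = 0.167). Of 9 microfibril partners 5 rose and 2 fell (median 0.68): Fbln5 (6.41 ± 0.387) and Emilin1 (0.94 ± 0.0817) rose, Fn1 (-1.48 ± 0.199) and Fbn2 (-1.15 ± 0.169) fell, and Fbn1, the fibrillin to which binding proteins attach, did not pass (0.056 ± 0.196, adjusted p = 0.817). Itgb6 and Plg were left out of the tests for low counts, and Fbln4 and Ctgf, older symbols of genes that the lists also hold under their current names, are not in the files.

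Of the 8 genes listed as extracellular antagonists 7 rose and 1 fell (median 4.09), where 32.1% of all genes rose and 32.8% fell. The list is loose: a place on it, as for Lrg1 and Hspa5, does not establish that the product opposes TGF-beta. Bgn and Fmod, small proteoglycans that bind TGF-beta, went from 17.9 ± 4.23 to 252 ± 32.2 CPM (3.81 ± 0.147) and from 2.26 ± 0.945 to 46.9 ± 5.06 CPM (4.37 ± 0.212). The gene that fell was Hspa5 (-1.22 ± 0.0822), best known as a chaperone of the endoplasmic reticulum. Lrg1 had no count at E9.5 and a mean of 1.56 CPM at E16.5, at least 49.2-fold higher than the level of 3 counts over all E9.5 libraries, and the median is 4.09 with Lrg1 at that bound too.

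Of 12 co-receptors and related receptors 4 rose, 5 fell and 3 did not pass (median 0.065), close to the 32.1% and 32.8% over all genes. Acvrl1, a type I receptor of endothelial cells, went from 6.76 ± 1.08 to 31.9 ± 2.5 CPM (2.24 ± 0.135), Cd109 rose (2.01 ± 0.172), and the endothelial co-receptor gene Eng went from 174 ± 8.57 to 248 ± 16.6 CPM (0.51 ± 0.0749). Bambi, a decoy receptor (-1.15 ± 0.103), and Acvr2b (-2.12 ± 0.204) fell. Of 21 Smads and regulators 6 rose, 10 fell and 5 did not pass (median -0.12), beside the same shares of all genes. Smad2 (-0.49 ± 0.0678), Smad3 (-0.56 ± 0.0940) and Smad4 (-0.61 ± 0.0862), which carry the signal, fell, and Usp15 (-0.68 ± 0.0795) fell too. Smad7, an inhibitory Smad (0.51 ± 0.103), Pmepa1 (2.81 ± 0.137) and Nedd4l (0.84 ± 0.0856) rose.

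Of 24 genes known to be induced by TGF-beta, a list that includes Ltbp2, 17 rose and 7 fell (median 1.13), where 64.9% of all genes passed and 32.1% rose. The list shares genes with the marker lists below, among them Col3a1 and Col1a2 (fibroblast), Has2 (cushion mesenchyme) and Acta2 (mural cell). It also shares Smad7, Pmepa1 and Fn1 with the lists above, and Cd109 is both a listed antagonist and a listed co-receptor. The counts and marker sums are therefore not separate observations. Col3a1 went from 125 ± 22.0 to 1645 ± 143 CPM (3.72 ± 0.126) and Col1a2 from 57.0 ± 13.0 to 1088 ± 123 CPM (4.25 ± 0.177), both genes of fibrillar collagen chains. Has2, a hyaluronan synthase of the cushions, went from 82.2 ± 14.9 to 3.40 ± 0.607 CPM (-4.59 ± 0.202), and Acta2, smooth muscle actin, which early cardiomyocytes also express, from 3247 ± 420.2 to 964 ± 125 CPM (-1.75 ± 0.103). The targets therefore did not move in 1 direction. Without the 5 libraries, a count added after the data were seen and where 51.1% of all genes passed, the targets gave 15 higher and 6 lower, the release factors 9 and 2, the receptors 4 and 3, the Smads and regulators 6 and 8, and the other lists the same counts, and no gene named from these lists lost its call.

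**Figure D4:**
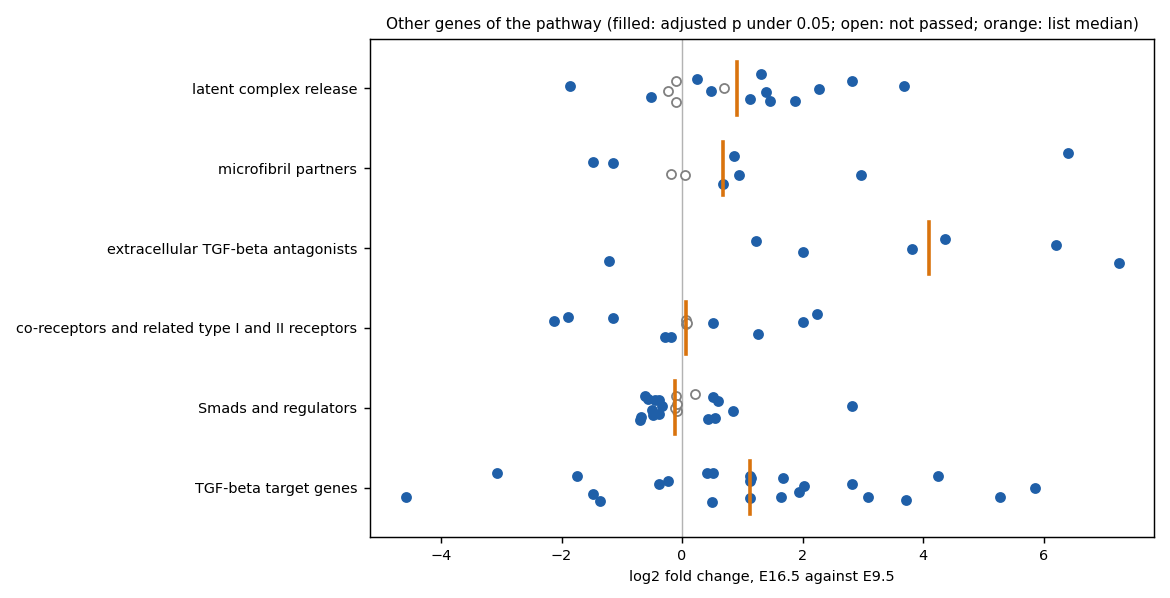
Log2 fold change of E16.5 against E9.5 (horizontal axis) for the tested genes of 6 pathway lists, 1 point per gene with random vertical offset, filled where the edgeR adjusted p was under 0.05; orange bars are list medians. Lrg1, with no count at E9.5, is left out of the points. The genes listed as antagonists have the highest median, 4.09, and the Smads and regulators the lowest, -0.12.

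Markers of several cell types moved over the same stages. The summed level of 9 fibroblast markers went from 265 to 365 CPM at E9.5 to 4457 to 5860.0 CPM at E16.5, beside the rises of Tgfb3, Tgfbr2, Ltbp3 and Ltbp4, and 8 of the 9 rose. The fibroblast sum was 2252 to 3015 CPM at E12.5 and 3842 to 4274 CPM at E14.5, while Tgfb3 overlapped between E12.5, E14.5 and E16.5. The 8 markers of cushion mesenchyme went from 1415 to 1776 CPM at E9.5 to 483 to 599 CPM at E16.5, and 6 of the 8 fell and 1 rose. Tgfb2, Tgfbr1 and Ltbp1 also fell between these end stages. At E12.5 the cushion marker sum was 926 to 1103 CPM, below E9.5. Ltbp1 was then at 182 to 229 CPM, above its 111 to 129.6 CPM at E9.5. Tgfbr1, at 98.5 to 124 CPM, and Tgfb2, at 90.6 to 110.5 CPM, overlapped with their levels at E9.5. The 8 cardiomyocyte markers summed to 15539 to 19028 CPM at E9.5 and 20041 to 27368 CPM at E16.5, and 4 of them rose and 2 fell. The 8 endothelial and endocardial markers summed to 857 to 957 CPM at E9.5 and 996 to 1061 CPM at E16.5, and 4 of them rose and 3 fell. Epicardial markers summed to 281 to 304 CPM at E9.5, 462 to 532 CPM at E10.5, 389.6 to 497 CPM at E12.5 and 303 to 395 CPM at E16.5. Between E9.5 and E16.5, 4 of these 8 rose and 2 fell. The sum of 8 mural cell markers, Acta2 included, went from 3503 to 4146 CPM to 1242 to 1487 CPM, although 5 of the 8 rose and 2 fell. Macrophage markers went from 8.59 to 42.3 CPM to 98.2 to 123 CPM, and 6 of the 8 rose. Megakaryocyte and platelet markers went from 21.6 to 30.6 CPM to 17.8 to 26.6 CPM, with 64.1 to 147 CPM at E12.5. Of these 8, 3 rose and 1 fell between the end stages, with a median log2 fold change of 0.72. Red cell markers summed to 5049 to 8006 CPM at E9.5, 16315 to 49186 CPM at E12.5 and 10577 to 22793 CPM at E16.5. Between E9.5 and E16.5, 5 of these 9 rose and 3 fell. Neuronal and Schwann markers went from 18.7 to 80.2 CPM to 95.0 to 126 CPM, and 4 of the 8 rose while 4 did not pass. Markers of lung, liver and gut epithelium summed to at most 11.1 CPM except in 1 library of E9.5 with 54.3 CPM, with Sftpc at 0 at E9.5 and E12.5 and Cdx2 at 0 at E10.5, E12.5 and E16.5. Mitochondrially encoded genes held 2.04% to 2.37% of the counts at E9.5 and 4.65% to 6.44% at E16.5. The part of these cell types and of the mitochondrial share in the changes of the 10 genes was not tested.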

How the data were processed

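Hearts of mouse embryos at 5 stages were measured by RNA-seq in 18 libraries. The authors deposited raw read counts per gene, 1 file per library. Per the submitters' processing notes the tools were Trimmomatic 0.36, STAR 2.5.2b and featureCounts of Subread 1.5.2, with the builds GRCm38 and mm10. Which annotation release was counted, and with what strand setting, is not given in the sources used here. Reads of overlapping genes on opposite strands may therefore be shared.

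From the counts, edgeR 4.0.16 (R 4.3.3) was used with TMM scaling, its filter on low counts by stage (18885 genes kept) and a robust quasi-likelihood fit with stage as the only term over all 18 libraries, with Benjamini-Hochberg adjustment over all genes tested. A gene passed at an adjusted p under 0.05. SE is the absolute log2 fold change divided by the square root of F. CPM and RPKM use TMM-scaled totals, and RPKM uses exon lengths of GENCODE M21 (GRCm38), which held 49056 of the 49315 identifiers. Gene positions are from that annotation. Ratios within families used RPKM with a pseudocount of 0.5 counts. The level that 3 counts give was 0.0657 to 0.0976 CPM per library, which covers counting error only. Promoters came from RefSeq. The fits were tested on simulated data. DESeq2 1.42.0 and limma 3.58.1 were among the alternatives, with other scalings, filters, a block for the replicate number and leaving out each library. The replicate number was checked as a possible shared batch by correlating the deviations of libraries from their stage means. The 33 same-numbered pairs of libraries had correlations from -0.64 to 0.50 (median -0.020), 8 of them over 0.1. The 96 other pairs went from -0.64 to 0.66 (median 0.0040), 28 of them over 0.1. The means rest on 3 or 4 libraries each, and the 5 libraries that stand apart were left in, so the check cannot exclude a batch. No libraries of a stage were copies, with chi-square over its degrees of freedom of 6.06 to 79.8 for 24 pairs.

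The 10 genes, the pathway and marker lists and the tests were chosen with earlier results of these data known. Genes named from a pathway list were the 2 with the smallest p in each direction and a few set ones (Smad2, Smad3, Smad4, Smad7, Eng, Acvrl1, Fbn1, Itgb8 and Itgav), and for each of the 10 genes the 3 with the highest r. A few other genes are not reported here.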

Additional observations from a re-analysis of the deposited data

Results flagged for a closer look

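In 4 of the 30 groups of 4 libraries tested, 1 library lay far from the other 3, a share that chance alone gives in about 1 of 20 groups. Tgfbr1 at E16.5 was 62.2 CPM in replicate 3, against 52.9 to 54.4 CPM in the others. At E12.5, replicate 4, 1 of the 5 libraries that stand apart, held the high value of both Tgfbr2 (65.4 CPM, against 53.9 to 54.7 CPM) and Tgfbr3 (64.7 CPM, against 54.2 to 55.6 CPM). Ltbp3 at E16.5 was 100.2 CPM in replicate 4, against 124 to 128 CPM in the others, and that library also held the lowest level of Ltbp2, Ltbp1, Ltbp4 and Tgfb3 at E16.5. The cause was not tested.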

How the results depend on the processing

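Over the alternatives, 913 values of results that had passed kept direction and call and 28 lost the call. Of results that had not passed, 494 values stayed so, 20 passed and 15 changed sign. For E10.5 against E9.5, 4 of the 10 genes and 1215 of all genes passed without the 5 libraries, in place of 7 and 3446, and 6460 genes passed within the 5. Leaving out 1 library gave 2260 to 3839 genes (lowest without E9.5 replicate 3) and 6 to 7 of the 10 there. It gave 6067 to 7978 genes and 5 to 7 of the 10 for E12.5 against E10.5, and 1771 to 3425 genes and 3 to 7 of the 10 for E14.5 against E12.5 (lowest without E14.5 replicate 3). It gave 2058 to 4210 genes and 4 to 5 of the 10 for E16.5 against E14.5, and 11224 to 12634 genes and 9 of the 10 throughout for E16.5 against E9.5. With the replicate number as a block, 3286, 7060, 2415, 3105 and 11927 genes and 7, 6, 5, 5 and 9 of the 10 passed in the 5 comparisons. Ltbp3 was lost at E14.5 (adjusted p = 0.0591) and Ltbp2 gained at E16.5 (0.0389). The labels do not say whether the numbers pair the samples. Signs changed for uncalled values only: Tgfb1 at E10.5 without the 5 libraries (0.10), Tgfb2 at E12.5 within them (-0.014) and, leaving out 1 library, from -0.024 to 0.072. Scaling by totals gave -0.11 for Tgfb1, -0.044 for Tgfb3, -0.00073 for Tgfbr2 and -0.095 for Ltbp3 for E16.5 against E14.5, and -0.029 for Tgfb1 against E9.5. Leaving out 1 library gave -0.031 to 0.12 for Tgfb1 and -0.024 to 0.10 for Ltbp3 against E14.5, and -0.054 to 0.076 for Tgfb1 against E9.5. The Ltbp2 call at E10.5 was lost in limma-voom (adjusted p = 0.294), unfiltered (0.067), scaled by totals (0.0536) and with a term for the 5 libraries (0.0585). The cause of these differences was not tested. Ratios without 1 library kept their signs, and 3 libraries against 4 cannot reach an exact p under 0.05. Ltbp2, with the fewest counts, is the least precise.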
